A study of Mus musculus with 6 samples.

Results

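The genes described here encode the enzymes that build and break down liver glycogen and the subunits that bring protein phosphatase 1 to the glycogen particle. They were chosen by name, as the 9 genes Gys2, Gys1, Gyg, Ugp2, Gbe1, Pygl, Ppp1r3b, Ppp1r3c and Ppp1r3g. All 9 had a probe set naming that gene alone, among 20242 genes measured in this way, and each had 1 such probe set. Liver RNA came from 6 male C57BL/6 mice, each hybridised to its own Affymetrix exon array. In the 3 knockout mice (Albumin-Cre; Cpt2f/f) both Cpt2 alleles were floxed and Cre was driven by the albumin promoter, which acts in hepatocytes. Which other liver cells keep the gene was not measured here. The 3 controls carried the floxed alleles without Cre (Cpt2f/f), so an effect of Cre itself cannot be told apart from the deletion. Every mouse, control or knockout, had fasted for 24 hours before the liver was taken, and no fed animals were analysed here. The labels list ages of 9 to 11 weeks for the controls and 12 to 14 weeks for the knockouts, while the growth protocol gives 9 weeks for all. The comparison asks how loss of Cpt2, which mitochondria need to oxidise long-chain fatty acids, alters these transcripts in the fasted liver.

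Glycogen is the glucose store of the liver, filled after meals and drained within the first part of a fast. Glycogenin primes a chain, UDP-glucose supplies the sugar, glycogen synthase lengthens the chain, the branching enzyme adds branch points, and glycogen phosphorylase releases glucose 1-phosphate. Synthase is switched on and phosphorylase switched off when protein phosphatase 1 removes phosphate from them, and targeting subunits hold that phosphatase on glycogen. Transcript levels say nothing of the phosphorylation state of either enzyme, nor of the amount of glycogen, neither of which was measured here.

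In the knockout livers the transcripts of both opposing enzymes and of all 3 targeting subunits differed from the controls, in different directions. Gys2 (liver glycogen synthase) and the targeting subunit Ppp1r3g rose, while Pygl (liver glycogen phosphorylase) and the targeting subunits Ppp1r3b and Ppp1r3c fell. Gys1, Gyg, Ugp2 and Gbe1 did not pass. Of the 9 genes, 2 were higher and 3 lower at an adjusted p under 0.05 by limma, against 8.24% of all genes called (4.74% higher and 3.49% lower). The groups did not overlap in 6 of the 9, where 25.1% of all genes had groups that did not overlap. The median absolute log2 difference was 0.79 for the 9 genes and 0.12 over all genes. The genes were picked with earlier results of these data known, so these shares describe the genes and do not test them.

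**Figure D1:**
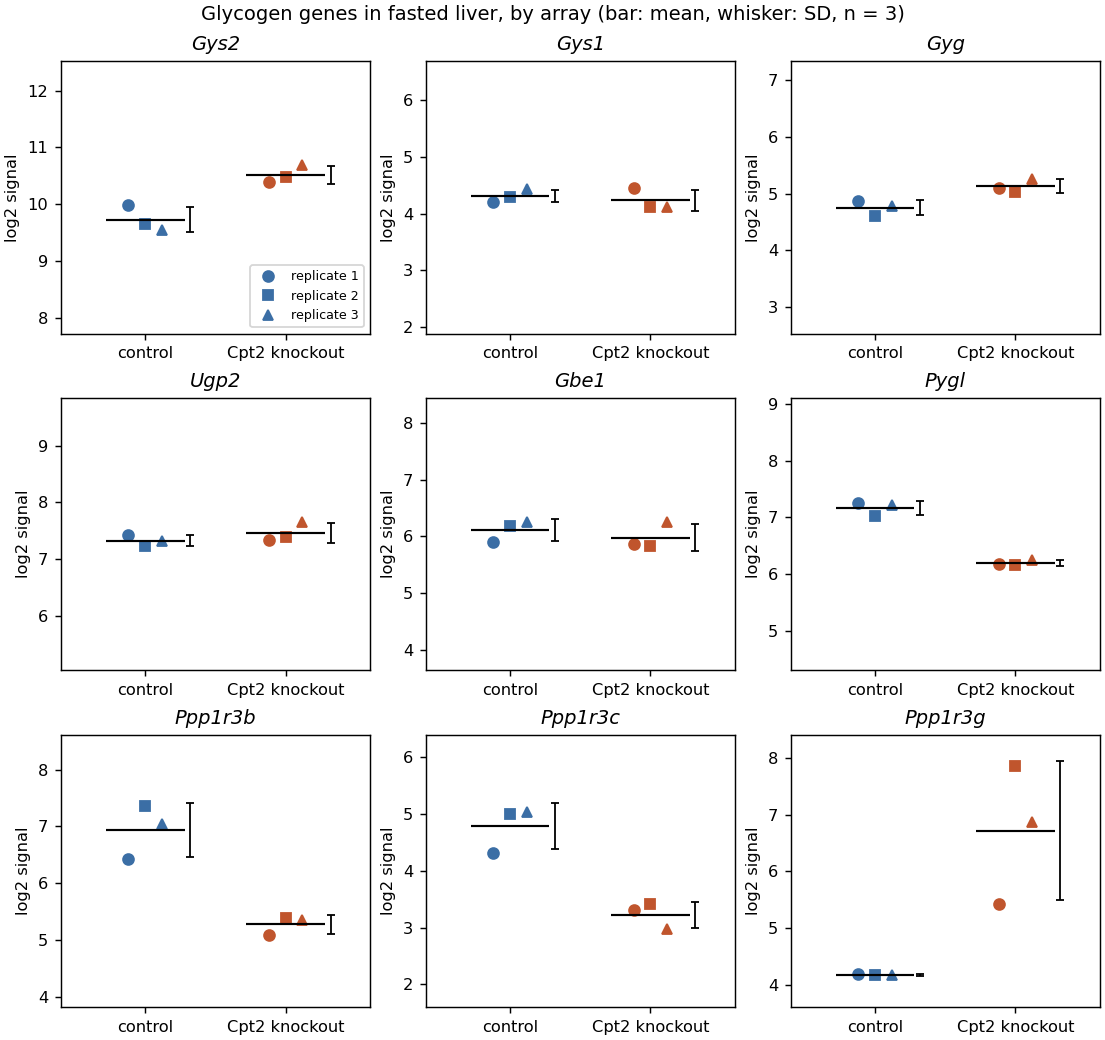
Log2 signal of each glycogen gene in each array, with 1 panel per gene, controls in blue and Cpt2 knockouts in orange. Symbols mark replicates 1 to 3, horizontal bars the group mean and whiskers the SD (n = 3), and all panels span the same height, so that the distances can be compared while the positions cannot. Groups are apart in the panels of Gys2, Gyg, Pygl, Ppp1r3b, Ppp1r3c and Ppp1r3g, and the knockouts of Ppp1r3g are the most widely spread.

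Promoter sequence is shown for the called genes that the RefSeq promoter table holds. In that table (build GRCm38.p6), 7 of the 9 genes were matched, Gys2 and Ppp1r3b not among them. The 250 bases before the annotated start of 3 called genes are given, 5′ to 3′ on the strand of the gene, with matches to 4 short motifs in capitals. The motifs were the E-box CACGTG, the cyclic AMP response element core TGACG, the forkhead motif GTAAACA and the nuclear receptor motif AGGTCA, each sought on both strands. Ppp1r3g lies on the plus strand (chr13:35967656-35967905), and Ppp1r3c (chr19:36736605-36736854) and Pygl (chr12:70227684-70227933) on the minus strand.
Ppp1r3g: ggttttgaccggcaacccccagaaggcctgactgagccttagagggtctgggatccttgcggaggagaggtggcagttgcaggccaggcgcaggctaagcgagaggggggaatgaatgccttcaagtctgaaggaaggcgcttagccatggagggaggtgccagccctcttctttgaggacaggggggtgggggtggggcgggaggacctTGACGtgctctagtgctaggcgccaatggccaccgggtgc
Ppp1r3c: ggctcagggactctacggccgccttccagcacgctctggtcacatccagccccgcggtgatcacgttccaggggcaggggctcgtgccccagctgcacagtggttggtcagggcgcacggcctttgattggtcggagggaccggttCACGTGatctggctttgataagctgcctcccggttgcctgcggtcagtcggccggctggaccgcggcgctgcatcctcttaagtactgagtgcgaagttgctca
Pygl: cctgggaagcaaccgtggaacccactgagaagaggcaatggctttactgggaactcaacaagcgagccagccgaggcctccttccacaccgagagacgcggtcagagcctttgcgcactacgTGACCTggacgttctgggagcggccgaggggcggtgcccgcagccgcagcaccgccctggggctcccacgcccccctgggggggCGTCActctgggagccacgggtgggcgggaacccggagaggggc

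Ppp1r3g had 1 TGACG, whose first base lay 40 bases before the start. Ppp1r3c had 1 E-box, beginning 104 bases before the start. Pygl had 1 AGGTCA and 1 TGACG, both read on the opposite strand, with the leftmost bases of the matches 128 and 44 bases before the start. Over windows of 300 bases, which run on to 50 bases after the start, Gyg had 1 E-box and 1 TGACG that overlap each other, both after the start, and the windows of Gys1, Gbe1 and Ugp2 had no match. Among 32851 such windows in the table, 20.8% held TGACG, 16.3% AGGTCA, 7.15% the E-box and 3.65% GTAAACA. A match is only a run of letters, and binding of a factor was not measured. Any tie between the motifs and the direction of change was not tested.

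Glycogen synthesis is taken first. Gys2 encodes the liver isoform of glycogen synthase. Its log2 signal was 9.98, 9.65 and 9.55 in control livers and 10.38, 10.47 and 10.69 in knockout livers. Every knockout lay above every control, with a gap of 0.40 between the groups. The mean signal rose by 0.79 on the log2 scale (with an SE of 0.14, 95% interval 0.47 to 1.11), a 1.73-fold increase with an adjusted p of 0.0108 by limma. With each array left out in turn the difference ran from 0.70 to 0.91, and the adjusted p by limma stayed between 0.00845 and 0.0468.

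Gys1 is the synthase isoform of muscle and most other tissues. Its signal was 4.21, 4.30 and 4.43 in control livers and 4.45, 4.13 and 4.12 in knockout livers, and the groups overlapped. The log2 difference was -0.08 (95% interval -0.36 to 0.21, adjusted p = 0.845 by limma), an interval that does not reach the Gys2 difference. Gys1 was much dimmer than Gys2, and values of this kind compress differences between dim signals. Within an array, the log2 value of Gys2 minus that of Gys1 was 5.42 ± 0.33 in control livers and 6.28 ± 0.32 in knockout livers (SD, n = 3 per group), so the pair shifted apart by 0.86. This pair, like those below, was chosen after the values were seen, and its shift was not tested.

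Gyg encodes glycogenin, the protein on which a new glycogen chain is started. Its signal was 4.87, 4.61 and 4.78 in control livers and 5.10, 5.03 and 5.26 in knockout livers. The groups did not overlap, yet the log2 difference of 0.38 (SE 0.11, 95% interval 0.13 to 0.64) had an adjusted p of 0.0812 by limma. It passed in 1 of 17 alternatives, the one limited to genes at or above the median level (adjusted p = 0.0416 by limma).

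Ugp2 makes UDP-glucose, the sugar donor of glycogen synthase. It stood at 7.42, 7.23 and 7.33 in control livers and 7.33, 7.39 and 7.65 in knockout livers, with a log2 difference of 0.13 (95% interval -0.13 to 0.40, adjusted p = 0.645 by limma). Gbe1, the branching enzyme, stood at 5.90, 6.18 and 6.26 in control livers and 5.86, 5.82 and 6.25 in knockout livers, with a difference of -0.13 (95% interval -0.48 to 0.21, adjusted p = 0.74 by limma). Both had overlapping groups, and for both the interval holds 0. Among the synthesis genes other than Gys2, a difference as large as 1 on the log2 scale lies outside each interval.

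Glycogen breakdown rests on Pygl, the phosphorylase isoform of the liver. Its signal was 7.25, 7.03 and 7.22 in control livers and 6.18, 6.17 and 6.26 in knockout livers. The knockouts lay within 0.09 of each other and 0.78 below the lowest control. The mean signal fell by 0.97 on the log2 scale (with an SE of 0.10, 95% interval -1.19 to -0.74), leaving 51.2% of the control signal, with an adjusted p of 0.000916 by limma. It was the lowest adjusted p of the 9 genes. Without any 1 array the difference ran from -1.03 to -0.92 and the adjusted p from 0.00265 to 0.00626 by limma.

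With synthase up and phosphorylase down, their ratio within an array necessarily moved more than either gene, so it adds no separate result. Gys2 minus Pygl on the log2 scale was 2.73, 2.62 and 2.33 in control livers and 4.20, 4.30 and 4.44 in knockout livers. The mean of this within-array difference went from 2.56 to 4.31, a shift of 1.75. The isoforms of phosphorylase known from brain, Pygb, and from muscle, Pygm, had log2 differences of 0.08 and 0.21 and did not pass (adjusted p = 0.787 and 0.362 by limma), and both were named after their values were seen.

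The largest differences among the 9 genes were those of the targeting subunits. Ppp1r3b, also called GL, is the targeting subunit typical of liver, and in liver the active form of phosphorylase binds it and restrains its action on synthase. Its signal was 6.43, 7.35 and 7.04 in control livers and 5.08, 5.39 and 5.35 in knockout livers. The lowest control lay 1.03 above the highest knockout. The mean signal fell by 1.66 on the log2 scale (with an SE of 0.22, 95% interval -2.17 to -1.16), to 31.6% of the control signal, with an adjusted p of 0.00283 by limma. Larger absolute differences were found in 0.543% of all genes.

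Ppp1r3c, also called PTG, binds the phosphatase, synthase and phosphorylase and is found in many tissues. Its signal was 4.32, 5.0 and 5.03 in control livers and 3.30, 3.41 and 2.97 in knockout livers, again without overlap. The mean signal fell by 1.56 on the log2 scale (with an SE of 0.21, 95% interval -2.03 to -1.08), to 34.0% of the control signal, with an adjusted p of 0.00287 by limma. The knockout values lie near 2.88, the median probe set, and RMA, the summary method named for these values, compresses differences between dim signals. Ppp1r3c minus Ppp1r3b within an array was -2.16 ± 0.18 in control livers and -2.05 ± 0.31 in knockout livers (SD, n = 3 per group), a shift of 0.11 that is smaller than the spread. For both genes control replicate 1 was the lowest of the controls, and without it the differences were -1.92 for Ppp1r3b and -1.79 for Ppp1r3c, with adjusted p of 0.000865 and 0.00102 by limma.

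Ppp1r3g is a further targeting subunit, reported in mouse liver to be higher in the fasted than in the fed state. It went the other way from Ppp1r3b and Ppp1r3c. Its signal was 4.19, 4.17 and 4.17 in control livers and 5.42, 7.86 and 6.87 in knockout livers. The controls lay within 0.02 of each other, whereas the knockouts spread over 2.43, and the lowest knockout was still 1.23 above the highest control. The mean signal rose by 2.54 on the log2 scale (with an SE of 0.50, 95% interval 1.39 to 3.69), a 5.81-fold increase with an adjusted p of 0.0173 by limma. Larger absolute differences were found in 0.133% of all genes.

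The size and the call for Ppp1r3g depended on single arrays. The log2 difference was 3.19 without knockout replicate 1 (adjusted p = 0.000698 by limma) and 1.97 without knockout replicate 2 (0.0244). The call was lost without control replicate 2 (adjusted p = 0.0569 by limma), control replicate 3 (0.0531) or knockout replicate 3 (0.0722), although the difference stayed between 2.46 and 2.54 in these fits. Within an array, Ppp1r3g minus Ppp1r3b went from -2.76 ± 0.48 in the controls to 1.44 ± 1.06 in knockout livers (SD, n = 3 per group), a shift of 4.20.

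The genes with the pattern most like that of Ppp1r3g, by root mean square difference over the 6 arrays after each gene's control mean was subtracted, were Lepr (0.34), Osbpl3 (0.70) and Acot2 (0.71). Lepr, the leptin receptor, had the same order of knockout arrays, with log2 signals of 5.96, 8.02 and 7.03 in replicates 1, 2 and 3 against 3.91 to 4.30 in the controls. In Osbpl3, an oxysterol-binding protein homologue, the knockouts lay closer together, at 6.25, 6.30 and 6.69. Acot2, a mitochondrial acyl-CoA thioesterase, likewise showed little spread, at 9.96, 10.16 and 10.18.

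In a group of 3 arrays all but the middle one stand at an end for each gene, so end positions are common by construction. Knockout replicate 3 had the highest knockout signal of Gys2, Gyg, Ugp2, Gbe1 and Pygl and the lowest of Ppp1r3c and, by less than 0.01, of Gys1. Control replicate 1 stood at an end of the controls in all 9 genes, with the lowest control signal of Ppp1r3b, Ppp1r3c, Gbe1 and Gys1 and the highest of Gys2, Pygl, Gyg, Ugp2 and Ppp1r3g. With 3 arrays a group, these orders are a description. The arrays named here were picked from the values, and an effect of single arrays was not tested.

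**Figure D2:**
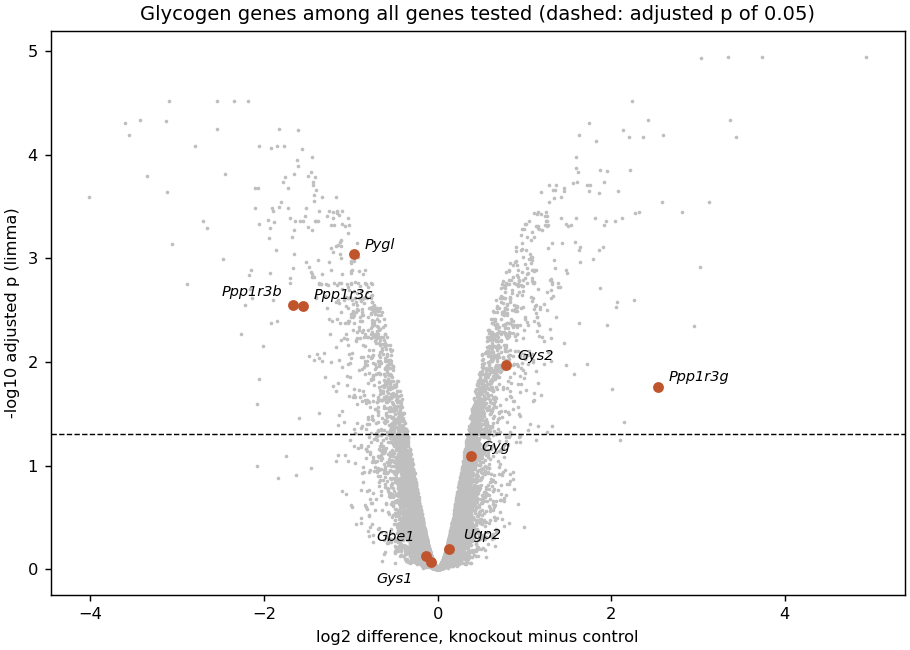
Log2 difference (knockout minus control, x axis) against the negative log10 of the adjusted p by limma (y axis) for 20242 genes in grey, with the 9 glycogen genes in orange. Ppp1r3b, Ppp1r3c and Pygl lie on the left above the dashed line at 0.05, Gys2 and Ppp1r3g on the right above it, and Gyg just below it.

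Other genes of glycogen metabolism were read from 7 lists by role, of which 43 of 53 genes were analysed here. Of these, 4 were higher and 4 lower at an adjusted p under 0.05 by limma (18.6%, against 8.24% of all genes), and the median log2 difference was -0.01, as over all genes. The other 10 were not analysed here.

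Genes of glucose entry and activation were lower in 2 of 3 cases. Gckr, a regulatory protein of glucose phosphorylation in the liver, had signals of 7.80, 7.75 and 7.89 in control livers and 6.37, 6.37 and 6.36 in knockout livers. It fell by 1.45 on the log2 scale (with an SE of 0.09, adjusted p = 0.000105 by limma), and the knockouts were nearly identical. Slc2a2, the glucose transporter GLUT2, was 9.77 to 9.91 in control livers and 9.14 to 9.41 in knockout livers and fell by 0.60 (SE 0.11, adjusted p = 0.0113 by limma), or 0.0518 without control replicate 3.

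In the list of breakdown and glucose release, 2 of 7 genes rose and 1 fell. Slc37a4, which carries glucose 6-phosphate into the endoplasmic reticulum, fell by 0.67 on the log2 scale (with an SE of 0.12, adjusted p = 0.0104 by limma). G6pc, the liver glucose 6-phosphatase that works with it, was 9.60, 9.57 and 8.97 in control livers and 7.88, 8.87 and 8.51 in knockout livers. Its log2 difference of -0.96 did not pass (adjusted p = 0.0645 by limma), and it was named after its values were seen. G6pc3, the glucose 6-phosphatase found in most tissues, rose by 0.48 (adjusted p = 0.0431 by limma). Gaa, the acid alpha-glucosidase that degrades glycogen in lysosomes, rose by 0.40 (adjusted p = 0.0328 by limma). With 1 array left out, the call was lost for Gaa whichever of the 6 it was (adjusted p 0.0633 to 0.122) and for G6pc3 in 5 of 6 cases (0.0394 to 0.142), all but control replicate 1. G6pc3 also lost it when arrays were centred on their medians.

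None of the 6 measured catalytic and other targeting subunits of protein phosphatase 1 passed by limma, and 1 had an unadjusted p under 0.05, where 20.2% of all genes had one. The one with the largest difference was Ppp1r3d, at 3.18, 2.88 and 3.21 in control livers and 3.70, 4.18 and 3.06 in knockout livers (log2 difference 0.55, adjusted p = 0.274 by limma, 0.0404 without knockout replicate 3). Nor did any of the 5 measured subunits of phosphorylase kinase, the activator of phosphorylase, pass by limma, with 2 at an unadjusted p under 0.05. Phka2, the liver alpha subunit, had the largest difference there, -0.29 (95% interval -0.53 to -0.05, adjusted p = 0.15 by limma, 0.038 after quantile normalization). Laforin (Epm2a) and malin (Nhlrc1), which guard glycogen against abnormal structure, did not pass either, with differences of -0.14 and -0.11 and 0 of 2 at an unadjusted p under 0.05.

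Among 13 genes of kinases known to act on glycogen synthase, 2 rose and 0 fell by limma, both of them subunits of AMP-activated protein kinase. The beta subunits of that kinase carry a glycogen-binding domain. Prkab2, the beta-2 subunit, was 3.51, 3.43 and 3.58 in control livers and 4.46, 4.45 and 4.48 in knockout livers, and rose by 0.96 on the log2 scale (with an SE of 0.09, adjusted p = 0.0006 by limma). Prkaa2, a catalytic subunit, rose by 0.42 (SE 0.10, adjusted p = 0.032 by limma), a call lost without any 1 of the 6 arrays (adjusted p 0.0547 to 0.116). Prkab1, the beta-1 subunit, named after its values were seen, had a log2 difference of -0.35 (adjusted p = 0.203 by limma).

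Of 7 genes of hormone receptors and their signal, 1 fell by limma. This was Adra1b, the alpha-1B adrenergic receptor, through which catecholamines stimulate glycogen breakdown in liver. Its signal was 7.01, 7.34 and 7.41 in control livers and 4.94, 5.47 and 5.53 in knockout livers. It fell by 1.94 on the log2 scale (with an SE of 0.18, adjusted p = 0.000512 by limma), to 26.1% of the control signal. Gcgr, the glucagon receptor, named after its values were seen, had a difference of 0.05 (95% interval -0.16 to 0.27, adjusted p = 0.862 by limma). Adra1b and Gckr were the 2 pathway genes past the threshold in all 17 alternatives.

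**Figure D3:**
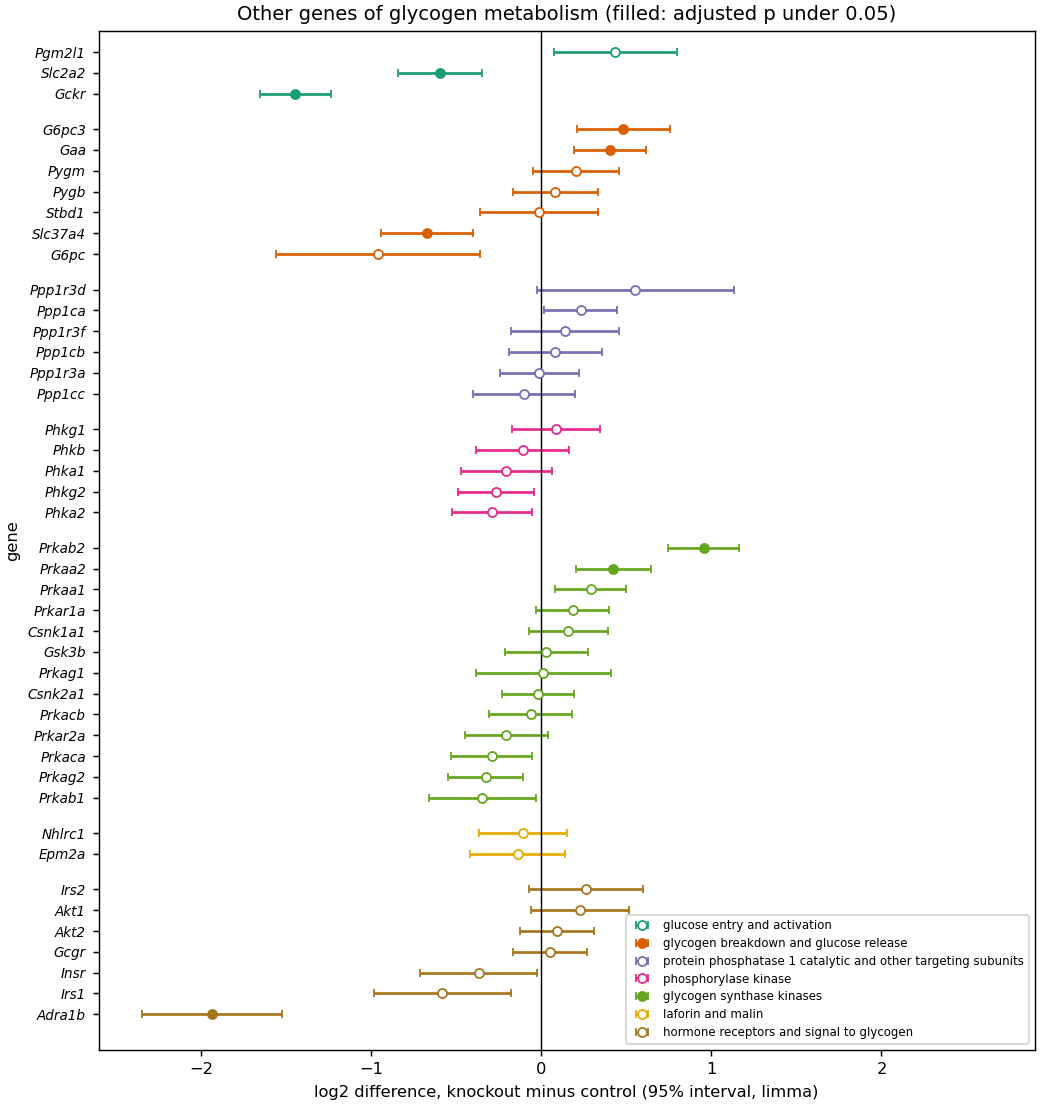
Log2 difference (knockout minus control, x axis) of 43 other genes of glycogen metabolism, grouped and coloured by role, with 95% intervals from limma. Filled symbols mark an adjusted p under 0.05, and the filled symbols farthest from 0 are Adra1b and Gckr on the left and Prkab2 on the right.

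The labels and the tissue were checked in the same values. Cpt2 was lower in each knockout (6.48 to 6.75) than in each control (7.56 to 7.72), with 50.5% of the control signal left (adjusted p = 0.0013 by limma), in RNA of whole liver. How much of the signal left came from intact Cpt2 transcript, or from which cells, was not measured. Over all genes, arrays of different genotype correlated less (r = 0.969 to 0.977) than arrays of the same one (0.985 to 0.989). Of 6 measured hepatocyte markers 3 fell (Alb, Ttr and Fgb) and 0 rose, while Apob, Hnf4a and Ahsg did not pass by limma. The log2 of the summed linear signal of all 6, led by the brightest markers, was 13.6 to 13.7 in control livers. In knockout livers it was 13.1 to 13.4. Of the called glycogen genes, Pygl, Ppp1r3b and Ppp1r3c were lower as well, while Gys2 and Ppp1r3g were higher. Sums for the other cell types were taken in the same way. In whole liver, fewer hepatocytes, less RNA per hepatocyte and lower expression of these marker genes alone cannot be told apart. Of 9 measured skeletal muscle markers 0 passed by limma (1 at an unadjusted p under 0.05), with sums of 8.62 to 8.64 in control livers and 8.19 to 8.57 in knockout livers. Of 10 markers of Kupffer cells and macrophages 2 rose (Cd68 and Gpnmb) and 1 fell (Marco) by limma. Only those 2 had a positive difference, and the median log2 difference of the 10 was -0.31. The sums were 9.50 to 9.99 in control livers and 10.0 to 10.5 in knockout livers. The sums also did not overlap for endothelial markers (9.73 to 9.89 and 9.96 to 10.1, 1 of 7 higher, Lyve1), for adipocyte markers (5.48 to 5.58 and 5.68 to 5.89, 1 of 5 higher, Fabp4) and for cholangiocyte markers (6.09 to 6.27 and 5.69 to 6.05, 0 of 4 called by limma and 1 at an unadjusted p under 0.05). The part of these shifts in the glycogen genes was not tested.

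All 5 called glycogen genes lost the call when each of 115050 probe sets was tested separately and when listed age was a covariate, and 4 lost it with unmoderated statistics. Listed age rises with replicate number inside each genotype and does not overlap between genotypes. The plot of the alternatives shows that Gys2, Pygl, Ppp1r3b, Ppp1r3c and Ppp1r3g kept their direction in each.

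**Figure D4:**
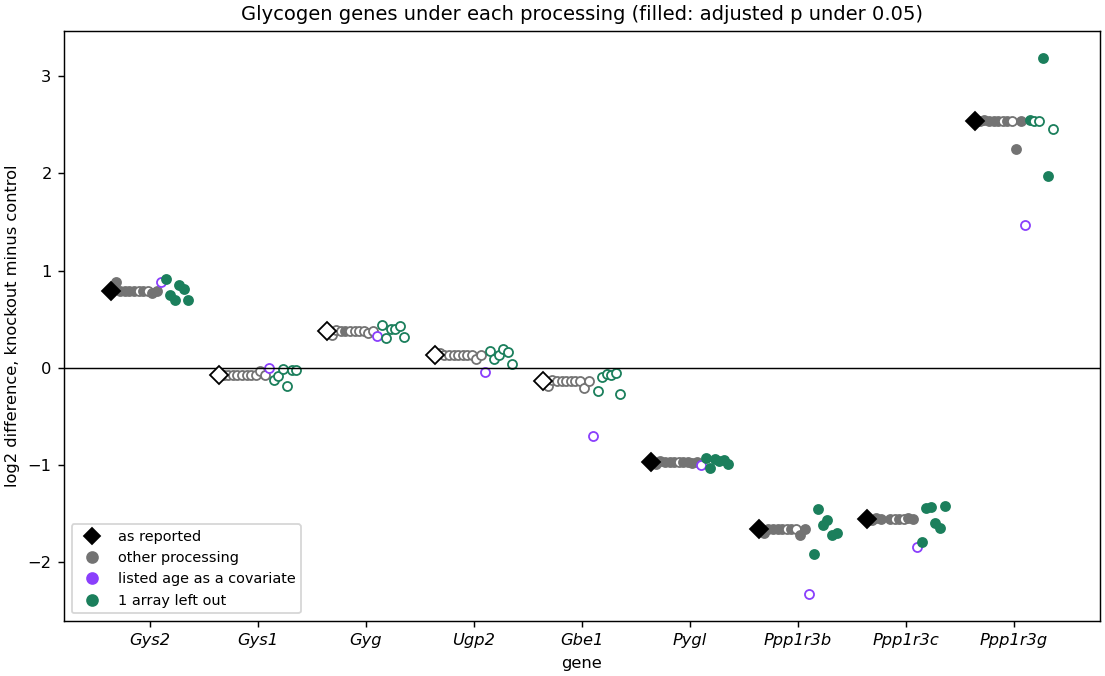
Log2 difference (knockout minus control, y axis) of each glycogen gene (x axis) as reported (black diamonds) and under the alternatives, with other processing in grey, listed age in purple and 1 array left out in green. Filled symbols mark an adjusted p under 0.05. Ppp1r3g ranges from 1.47 to 3.19, while Pygl stays between -1.03 and -0.92.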

How the data were processed

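The authors deposited log2 values, 1 per probe set and array. The submitters' processing notes name Partek, RMA and the mouse build mm9, with no version, order or options. RMA as a method corrects background, normalizes between arrays and summarises probes. The 115050 probe sets ran from 0.668 to 13.6. Without scanner files or detection calls, no level is called above background, and 3 arrays per group limit the precision.

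A gene was represented by the brightest probe set naming it alone, in the platform annotation. Entrez identifiers of 97.8% of the 20242 genes matched a RefSeq table of build GRCm38, used for names. The genotypes were compared in R 4.3.3 by limma 3.58.1, with a two-sided moderated test from lmFit and eBayes and no covariate. Benjamini-Hochberg adjustment covered all 20242 genes, with a threshold of 0.05. The fit was also run on simulated data with independent normal noise and planted changes, a check of the code that does not bear on the results. The labels call the samples biological replicates.

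The 9 genes, the pathway lists and the alternatives were chosen with earlier results of these data known. By rule the text names all 9 genes, Cpt2 and the 3 genes most like the 1 with the largest difference. From each list it names up to 4 called genes with the largest difference, or the largest difference where none passed. Pygb, Pygm, G6pc, Nhlrc1, Prkab1 and Gcgr were named outside this rule, and cell type markers were named for the tissue check. Deviations of same-numbered control and knockout arrays correlated at 0.07, 0.18 and -0.08, so replicate numbers were not taken as pairs.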

Additional observations from a re-analysis of the deposited data

How the results depend on the processing

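Over all genes 1667 were called, against 189 with every probe set tested separately, 652 without moderation of the variances and 83 with the listed age in the model. Leaving out 1 array gave 1036 to 1305, the fewest without control replicate 2 (1036) and control replicate 3 (1059). Of the 9 glycogen genes, 5 were called, against 0, 1 (Pygl) and 0 in those 3 settings and 4 to 5 with an array left out. Of the 43 pathway genes, 8 were called, against 2, 4 and 2, and 5 to 7 with an array left out, with 5 without control replicate 2, control replicate 3 or knockout replicate 1. The SE of Gys2 went from 0.14 to 0.18 with every probe set tested, where p-values are also adjusted over more features, and to 0.31 with listed age. With the replicate block 1384 genes, 5 glycogen genes and 6 pathway genes were called. The block ended the calls of Gaa and Prkaa2, and no call among the 9 genes.

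With listed age the differences were 0.88 for Gys2 (adjusted p = 0.379), -0.998 for Pygl (0.146), -2.33 for Ppp1r3b (0.0661), -1.84 for Ppp1r3c (0.172) and 1.47 for Ppp1r3g (0.808), all by limma. Gys1 turned to 0.00081 and Ugp2 to -0.043 there, neither called in any setting. Slopes on listed age passed in 0 of 20242 genes. Listed age does not overlap between genotypes, so this count cannot tell an age effect from a genotype effect. Ppp1r3c falls outside the filter at the median level, under which Gyg was called. Quantile normalization and median centring moved the median difference of all genes from -0.0084 to -0.0036 and -0.0034, and left the 5 calls in place.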
